A study of Bos taurus with 8 samples.

Results

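The antioxidant and redox defense enzymes described here are 36 genes of the granulosa cell transcriptome, out of 26804 genes with a value in the deposited table. The members are listed by the function of their proteins, and no measured value enters the rule, although the list was drawn up with earlier results of these data known. They are 5 glutathione peroxidases, 5 peroxiredoxins with sulfiredoxin (*SRXN1*), 2 thioredoxins with their 2 reductases, 3 superoxide dismutases with catalase, 4 enzymes of glutathione synthesis and reduction, 4 glutaredoxins, 4 methionine sulfoxide reductases, the quinone reductase *NQO1* with 2 heme oxygenases, and the regulators *NFE2L2* and *KEAP1*. Granulosa cells are the somatic cells that line the ovarian follicle around the oocyte. They came from multiparous beef cows that were not lactating (*Bos taurus*, labelled Angus) and were collected at ovum pick-up in the warm season (Summer, in August) and in the cold season (Winter, in January by the labels). No genetic modification or drug separated the groups, and the animals of both seasons had received a progesterone device and follicle-stimulating hormone to make follicles grow. Age was not analysed here. Each library was made from the pooled RNA of 2 cows, from a cell pellet of follicular fluid for which no cell sorting was described. The same herd was collected in both seasons, but the cows behind each pool are not given in the sources used here, so that libraries of the 2 seasons may share animals without a known pairing. There were 4 libraries a season, Summer 1, 2, 3 and 5 and Winter 1, 3, 4 and 5 by their labels. Season and the collection session cannot be told apart, and the p-values below measure the spread between these pooled libraries only.

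Cells of the growing follicle make hydrogen peroxide and superoxide in respiration and, in granulosa cells, in steroid synthesis. Superoxide dismutases turn superoxide into hydrogen peroxide, which catalase, the glutathione peroxidases and the peroxiredoxins remove. Peroxiredoxins are reduced again by thioredoxin and thioredoxin reductase, and glutathione peroxidases by glutathione, with NADPH as the final electron donor of both systems. NRF2, the protein of *NFE2L2*, is a transcription factor that raises many of these genes when it escapes degradation through KEAP1, so that much of its control lies at the protein and not at the transcript. Several of the enzymes, among them GPX1, GPX3, GPX4, the thioredoxin reductases and MSRB1, carry selenocysteine.

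Values are in TPM, a transcript abundance that is corrected for transcript length, so that genes can be compared, and that sums to the same total in every library. The transcripts of the 13 protein-coding mitochondrial genes took 50.7 to 87.7% of TPM in the summer libraries and 85.1 to 92.0% in the winter libraries, with Summer 3 at the upper end of the summer range. They were therefore left out, the other genes were set to the same total in each library, and a factor by the trimmed mean of M-values (TMM) was applied, which gives the scaled TPM used throughout. The table does not tell how many reads lie behind a value. Of the 14 granulosa cell genes listed, 10 were higher in summer at an adjusted p of at most 0.05 and 0 were lower (11 and 1 at an unadjusted p under 0.05). The 1 lower gene was *FOXL2*, at 61.2 ± 32.3 scaled TPM in summer and 97.7 ± 24.8 in winter (limma, adjusted p = 0.0995). *NR5A1* overlapped, with means of 96.8 and 87.0. Of all genes tested, 11.0% were higher and 10.4% lower at the adjusted p. The summed level of the 14 was 31168 to 81406 scaled TPM in summer and 15333 to 20420 in winter. Much of that sum was *INHA* alone, with means of 29299 and 10551. Genes of white blood cells went the other way, with 13 of 15 tested lower in summer and sums of 38.3 to 168 in summer and 446 to 913 in winter. Of 5 tested red blood cell genes 3 were lower in summer, with sums of 48.6 to 106 in summer and 590.4 to 42350 in winter, where Winter 3 was highest, while *CA1* and *RHAG* were at 0 in every library. Of 12 fibroblast and matrix genes 1 was higher in summer and 7 were lower (sums of 602.9 to 1252 and 1162 to 2792), and of 11 genes of epithelium and mesothelium 1 was higher and 4 were lower (827 to 1786 and 1650 to 4717). None of 5 theca cell and 7 endothelial genes tested passed in limma, adjusted or unadjusted. *CYP17A1*, the defining enzyme of theca cells, was at 0 in 6 of 8 libraries and reached 2.32 in Winter 1. *INSL3*, of the same list, was well above 0 in every library. It was at 163, 257, 88.5 and 96.3 scaled TPM in Summer 1, 2, 3 and 5 and at 98.9, 57.8, 446 and 105 in Winter 1, 3, 4 and 5. In bulk libraries fewer cells of a type and less RNA per cell cannot be told apart, and the part of these other cells in the season differences below was not tested unless a value is given.

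All 36 members passed the filter on low values and were among the 13046 genes tested. Their sum was 9357 to 11901 scaled TPM in summer and 10840 to 12158 in winter, so that the set as a whole overlapped between the seasons. *GPX1* was the highest member with a mean of 3519 scaled TPM over the 8 libraries, followed by *TXN* with 1521, *PRDX2* with 900.3, *PRDX1* with 766, *GPX3* with 729, *GPX4* with 536, *SOD1* with 498 and *GCLC* with 424. In all, 15 members had a mean above 100 scaled TPM and 4 (*SOD3*, *SRXN1*, *NQO1* and *GLRX*) had a mean under 20. The spread between libraries of a season was moderate for most, with a median coefficient of variation of 16.9% in summer and 14.1% in winter. It ran from 3.64% (*PRDX3*) to 53.3% (*SOD3*) in summer and from 2.84% (*PRDX5*) to 94.2% (*SRXN1*) in winter. Summer 3 was the lowest of the summer libraries for 18 of the 36 members, while no winter library was the lowest for more than 12.

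Between the seasons, part of the set moved in each direction. In limma with Benjamini-Hochberg adjustment over all genes tested, 7 members were higher in summer (*GPX8*, *SOD3*, *GCLM*, *TXN*, *PRDX3*, *GCLC* and *GPX7*) and 6 were lower (*SOD2*, *GLRX2*, *TXN2*, *GPX1*, *PRDX5* and *TXNRD2*). These are 19.4% and 16.7% of the members, beside 11.0% and 10.4% of all genes tested. With a 2-fold difference required as well, 3 members were called higher (*GPX8*, *GCLM* and *SOD3*) and 1 lower (*SOD2*), or 8.33% and 2.78% beside 6.09% and 6.74% of all genes tested, so that 9 of the 13 members past the adjusted p differed by less than 2-fold. The 4 values of each season did not overlap for 7 members higher in summer and 7 lower, 19.4% each, beside 12.9% and 11.3% of all genes tested. The median log2 fold change of the members, summer minus winter, was -0.04, beside 0.03 over all genes tested, and 11 members lay within 0.1 of 0.

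The calls in both directions depended on how the libraries were scaled. On the deposited TPM the log2 fold changes of the 6 lower members were all above 0. There, where the median of all genes was 0.89 on the log2 scale, 26 members were higher in summer and 0 lower (27 and 0 at an unadjusted p under 0.05). Of the 36 members, 29 lay above that median, beside 13 above the median of all genes on the scaled TPM. The 1 added before the log understates the fold changes of low genes, which enter these medians. Without the TMM factor 11 members were higher and 0 lower (11 and 4 unadjusted). The 6 lower members kept their direction there, with log2 fold changes from -0.77 (*SOD2*) to -0.21 (*TXNRD2*), but did not pass. With an upper quartile factor in place of TMM, 4 were higher and 6 lower (7 and 9 unadjusted), and 10 of the 13 stayed past. In that fit 1 member was called higher and 1 lower, beside 3 and 1 with TMM. When 1 library at a time was left out, all 13 kept their direction and 5 to 10 of them stayed past the adjusted p, with *PRDX3*, *TXN2*, *GPX1*, *GPX8* and *PRDX5* past it in all 8 such fits. With the mitochondrial share as a covariate 0 members were higher and 1 lower (5 and 5 unadjusted), and with the summed red blood cell or leukocyte genes as a covariate 0 were past in either direction (2 higher and 8 lower, and 0 higher and 4 lower, unadjusted). These shares and sums moved with season, and the median standard error of the members grew from 0.17 to 0.23, 0.35 and 0.42 in those 3 fits. The estimates moved as well. All 13 kept their direction with the mitochondrial share, and 12 did with each of the cell sums. *SOD3* went to -0.08 with the red blood cell sum and *GPX7* to -0.38 with the leukocyte sum. Over all 28 alternatives *GPX8* ran from 0.42 to 2.86, beside 1.35 to 1.90 in the leave-out fits. *SOD2* ran from -2.37 to 0.42, beside -1.40 to -0.74.

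**Figure D1:**
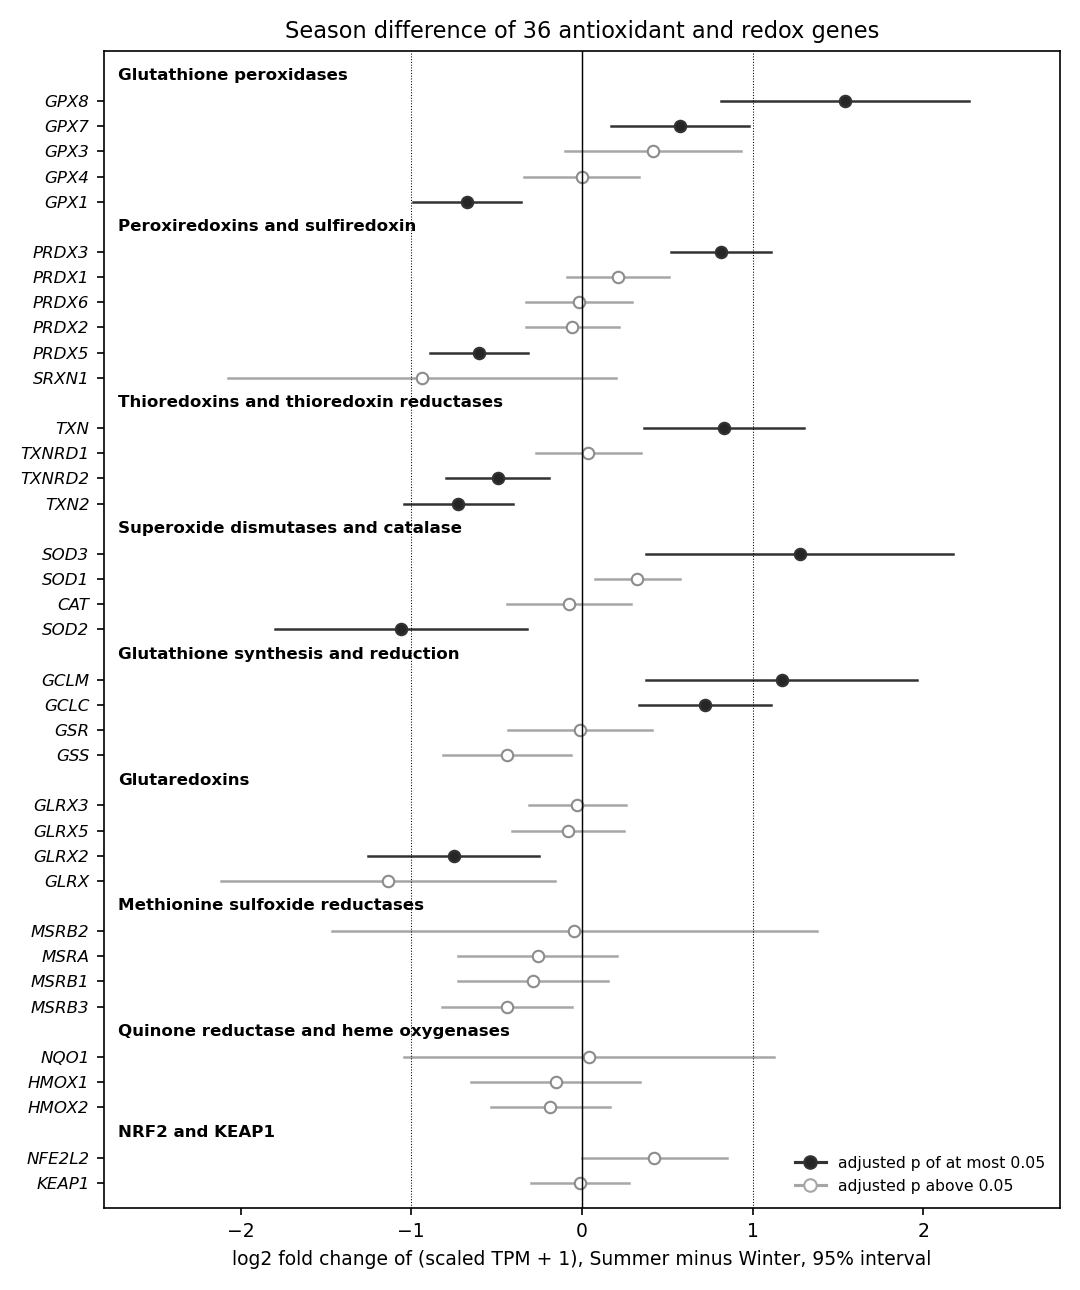
Log2 fold change of scaled TPM + 1 (summer minus winter) for each of the 36 members, grouped by role, with the 95% interval from limma. Filled points mark the 13 members with an adjusted p of at most 0.05 and dotted lines mark a 2-fold difference. *GPX8* is highest at 1.54, and the values of the 6 lower members hold for the scaled TPM and not for the deposited TPM, where all 6 are above 0.

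The glutathione peroxidases, which reduce peroxides, split by member. *GPX8*, an enzyme of the endoplasmic reticulum, rose most, and *GPX7*, of the same compartment, rose less, whereas *GPX1*, the abundant peroxidase of the cytosol and mitochondria, fell. *GPX8* was at 163, 198, 70.7 and 220.4 scaled TPM in Summer 1, 2, 3 and 5 and at 57.6, 33.9, 61.3 and 55.6 in Winter 1, 3, 4 and 5. Summer 3 was far below the other summer libraries but above every winter library. The means were 163 ± 65.9 and 52.1 ± 12.4 scaled TPM (SD, n = 4 each), and the log2 fold change was 1.54 with a standard error of 0.33 (limma, adjusted p = 0.00968). *GPX7* was at 140.0, 141, 89.2 and 100.5 in the summer libraries and at 87.9, 70.0, 87.0 and 66.3 in the winter libraries. The seasons did not overlap but came close between Summer 3 and Winter 1. Its log2 fold change was 0.57 with a standard error of 0.18 (limma, adjusted p = 0.0467), and it stayed past the threshold only when Summer 3 was left out (0.0203), with 0.0526 to 0.136 in the other leave-out fits.

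*GPX1* was at 2695, 2939.5, 2721 and 2466 scaled TPM in the summer libraries and at 3578, 4807, 4203 and 4742 in the winter libraries. Every winter library was above every summer library. The means were 2706 ± 194 and 4333 ± 572, a log2 fold change of -0.67 with a standard error of 0.14 (limma, adjusted p = 0.00934), while on the deposited TPM the log2 fold change was 0.84. Like the other members, it was not past the adjusted p with the summed red blood cell or leukocyte genes as a covariate. The part of blood cells in its values was not tested. *GPX4*, which protects membrane lipids from peroxidation, was at 503, 599.6, 425 and 619 in summer and at 618, 449.7, 529 and 543 in winter. Its log2 fold change was -0.00 with a 95% interval of -0.34 to 0.34. *GPX3*, the secreted peroxidase, was at 948, 871, 555 and 950.7 in summer and at 774, 591, 406 and 738 in winter. Those values overlapped, and the log2 fold change of 0.42 did not pass (95% interval -0.10 to 0.93, limma adjusted p = 0.225).

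Among the peroxiredoxins, the thiol peroxidases that work with thioredoxin, the mitochondrial *PRDX3* rose in summer and *PRDX5*, of mitochondria, peroxisomes and cytosol, fell. *PRDX3* was at 178, 167, 164 and 173 scaled TPM in Summer 1, 2, 3 and 5 and at 101, 111, 99.4 and 78.1 in Winter 1, 3, 4 and 5. The summer libraries had a coefficient of variation of 3.64% and all were above the highest winter library. With means of 171 ± 6.21 and 97.3 ± 13.8, its log2 fold change was 0.82 with a standard error of 0.13, and its adjusted p was the smallest of the 36 members (limma, 0.00298). *PRDX5* was at 247, 255, 183 and 250.3 in the summer libraries and at 362, 344, 344 and 361 in the winter libraries. Its winter values were the tightest of any member in that season, and Summer 3 lay apart below the other summer libraries. The log2 fold change was -0.60 with a standard error of 0.13 (234 ± 34.2 and 353 ± 10.0 scaled TPM, limma adjusted p = 0.0103), and 0.90 on the deposited TPM.

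The more abundant cytosolic peroxiredoxins overlapped between the seasons. *PRDX2* was at 942, 984, 828 and 780.4 scaled TPM in summer and at 946, 918, 811 and 991 in winter, with a 95% interval of its log2 fold change of -0.33 to 0.22. *PRDX1* was at 877, 889, 687 and 837 in summer and at 617, 741, 667 and 816 in winter, with an interval of -0.09 to 0.51. *PRDX6*, which reduces phospholipid peroxides with glutathione, had an interval of -0.33 to 0.30. *SRXN1*, which repairs overoxidised peroxiredoxins, was the lowest member at 3.31, 5.88, 4.87 and 1.68 in summer and 5.04, 3.45, 24.5 and 8.14 in winter. Winter 4 lay far above the other winter libraries, and the log2 fold change of -0.94 did not pass (95% interval -2.07 to 0.20, limma adjusted p = 0.217).

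The thioredoxin system differed by compartment. Cytosolic thioredoxin (*TXN*) rose in summer, while its mitochondrial counterpart *TXN2* and the mitochondrial reductase *TXNRD2* fell on the scaled values. *TXN* was at 2364, 1893, 1199 and 2423 scaled TPM in Summer 1, 2, 3 and 5 and at 954, 1150.4, 998 and 1183 in Winter 1, 3, 4 and 5. Summer 3 stood just above the highest winter library and the other summer libraries stood well clear of it. The means were 1969.8 ± 566 and 1071 ± 112, and the log2 fold change was 0.83 with a standard error of 0.21 (limma, adjusted p = 0.0203). It was lost without Summer 1, Summer 2, Summer 5 or Winter 1, at adjusted p values of 0.0621, 0.0516, 0.0579 and 0.0515.

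*TXN2* was at 84.6, 85.8, 95.5 and 67.5 scaled TPM in the summer libraries and at 157, 121, 130.3 and 142 in the winter libraries. There was no overlap, and the call held whichever library was left out. The means were 83.4 ± 11.7 and 138 ± 15.5, with a log2 fold change of -0.72 and a standard error of 0.14 (limma, adjusted p = 0.00719), against 0.75 on the deposited TPM. *TXNRD2* was at 32.2, 29.9, 29.5 and 34.1 in summer and at 44.4, 43.4, 48.7 and 42.2 in winter. Both seasons were tight and apart from each other. The log2 fold change was -0.49 with a standard error of 0.14 (limma, adjusted p = 0.0277; 0.88 on the deposited TPM), and it was lost in 5 of 8 leave-out fits, at 0.0527 to 0.0739. *TXNRD1*, the cytosolic reductase, was at 28.9, 27.6, 31.2 and 30.8 in summer and at 27.8, 29.7, 28.4 and 29.2 in winter. These 8 values lay within a narrow band, and the log2 fold change was 0.04 with a 95% interval of -0.27 to 0.35.

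**Figure D2:**
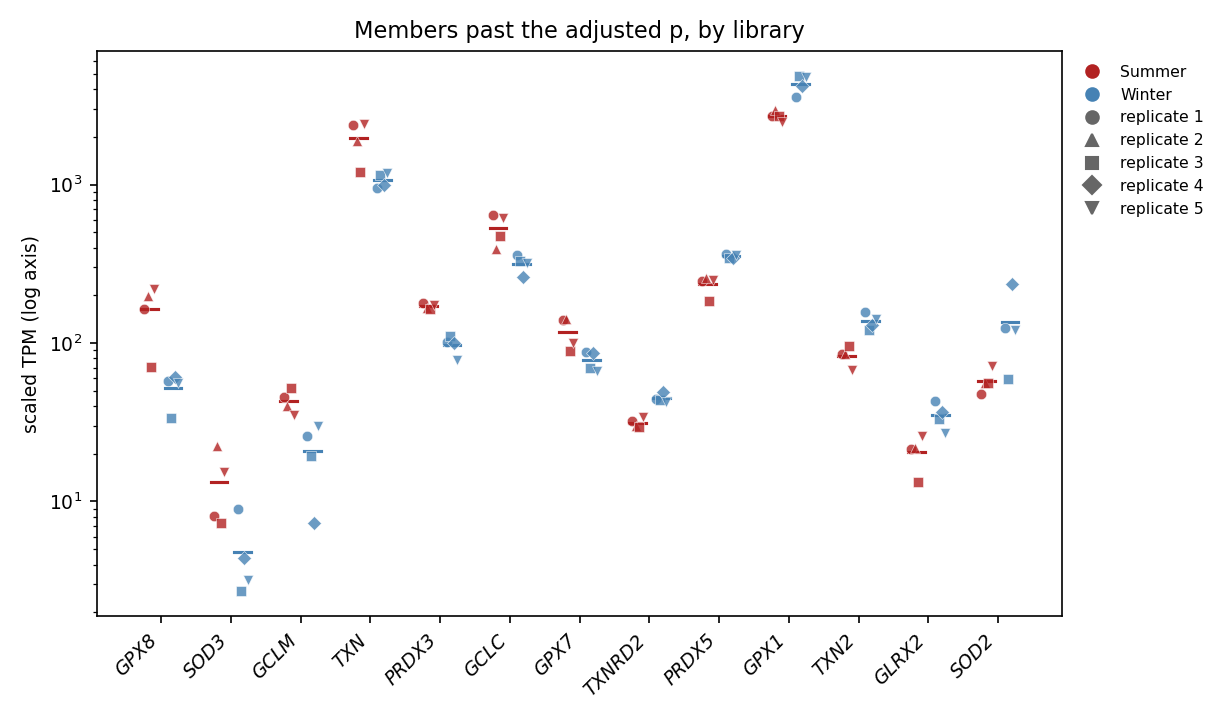
Scaled TPM (log axis) of the 13 members past the adjusted p in each library, ordered by log2 fold change. Each point is 1 library, the marker shape gives the replicate number, and the short lines are season means. The seasons are apart for 11 of the 13 and overlap for *SOD3* and *SOD2*; the lower position of the 6 genes on the right in summer holds for the scaled TPM and not for the deposited TPM.

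Ratios between members of the same library do not depend on how libraries are scaled. The ratio of *TXN* to *TXN2* was 27.9, 22.1, 12.6 and 35.9 in Summer 1, 2, 3 and 5 and 6.06, 9.47, 7.66 and 8.32 in Winter 1, 3, 4 and 5. Every summer library was above every winter library, with means of 24.6 ± 9.84 and 7.88 ± 1.42 (SD, n = 4 each). *TXNRD1* to *TXNRD2* was 0.90, 0.92, 1.06 and 0.90 in summer and 0.63, 0.68, 0.58 and 0.69 in winter, again without overlap. *PRDX3* to *PRDX1* was 0.19 to 0.24 in summer and 0.10 to 0.16 in winter, and *SOD2* to *SOD1* was 0.08 to 0.12 in summer and 0.13 to 0.53 in winter. The ratio of *GPX8* to *GPX7* overlapped, at 0.79 to 2.19 in summer and 0.48 to 0.84 in winter, as did those of *GCLC* to *GCLM*, *GPX1* to *GPX4*, *GPX3* to *GPX1*, *NFE2L2* to *KEAP1* and *TXN* to *TXNRD1*. A ratio shows unequal change of a pair and not which of them changed, and the pairs were chosen with the levels known, so that no test was made.

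**Figure D3:**
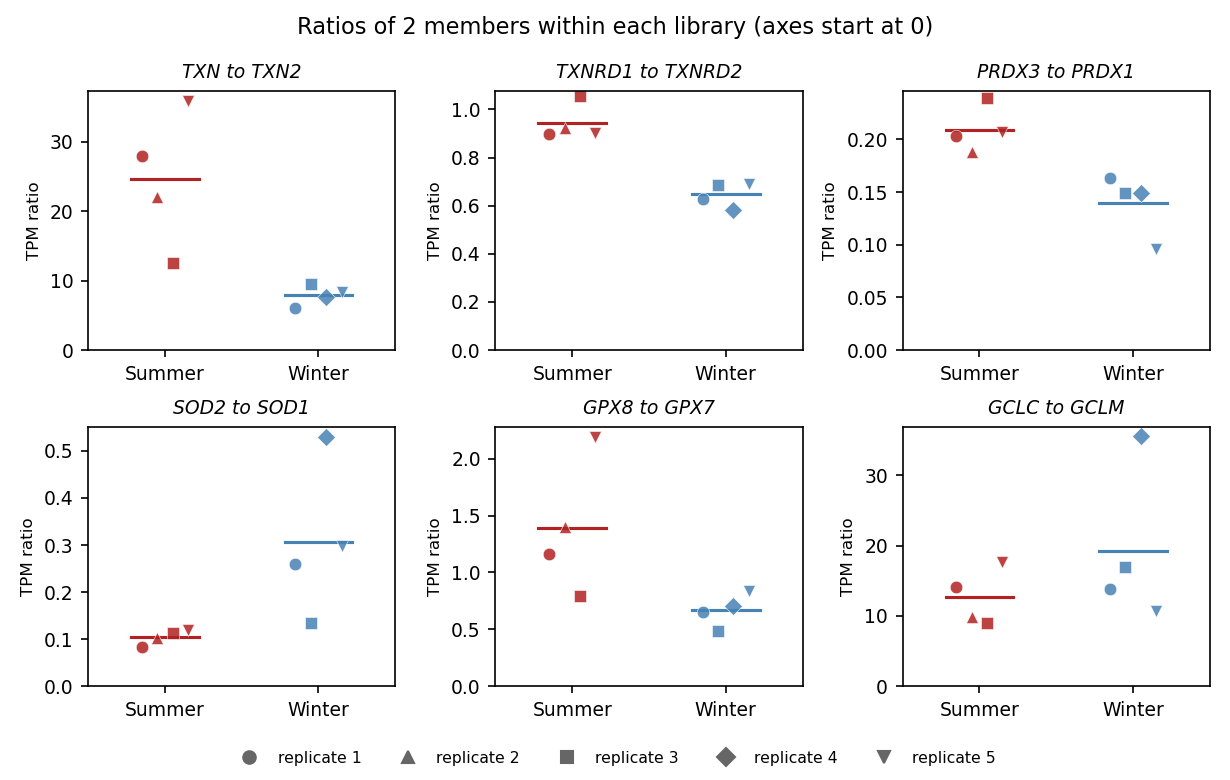
Ratio of TPM of 6 pairs of members within each library, by season (axes start at 0). Each point is 1 library, the marker shape gives the replicate number, and lines are season means. *TXN* to *TXN2*, *TXNRD1* to *TXNRD2*, *PRDX3* to *PRDX1* and *SOD2* to *SOD1* do not overlap between seasons, whereas *GPX8* to *GPX7* and *GCLC* to *GCLM* do.

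The superoxide dismutases did not all move the same way. *SOD2*, the manganese enzyme of the mitochondrial matrix, fell in summer on the scaled TPM, and *SOD3*, the secreted enzyme, rose from a low level. *SOD1*, the abundant cytosolic enzyme, also lay higher in summer but did not pass. *SOD2* was at 47.9, 56.2, 56.0 and 71.3 scaled TPM in Summer 1, 2, 3 and 5 and at 125, 58.9, 237 and 121 in Winter 1, 3, 4 and 5. Winter 3 lay inside the summer range and Winter 4 was by far the highest. The means were 57.8 ± 9.77 and 135 ± 74.0, with a log2 fold change of -1.06 and a standard error of 0.33 (limma, adjusted p = 0.0457). The call held only in the fit without Winter 3 (0.00631) and was lost in the other 7, at 0.0659 to 0.116, and on the deposited TPM the log2 fold change was 0.42. Some genes of white blood cells were highest in Winter 4 like *SOD2*, and others were not. *TYROBP*, an adaptor protein of myeloid cells, was at 0.447, 0.492, 0.243 and 0.312 in the summer libraries and at 4.21, 2.91, 30.4 and 6.16 in the winter libraries. *FCER1G*, another signalling chain of these cells, was at 5.47 to 20.5 in summer and at 25.9, 43.0, 139 and 40.2 in Winter 1, 3, 4 and 5. The leukocyte genes as a whole did not peak there, with sums of 446, 913, 678 and 739 in those libraries. *PTPRC*, carried by all white blood cells, was at 8.82, 26.5, 7.70 and 26.2 in the same order, and *ITGB2* at 27.9, 24.8, 17.8 and 22.1. The part of white blood cells in the *SOD2* values was not tested.

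*SOD3* was at 8.14, 22.4, 7.26 and 15.3 scaled TPM in the summer libraries and at 8.90, 2.74, 4.41 and 3.19 in the winter libraries. Winter 1 lay above Summer 1 and Summer 3. The log2 fold change was 1.28 with a standard error of 0.41 (13.3 ± 7.07 and 4.81 ± 2.82, limma adjusted p = 0.0474), and it was past the threshold in only 2 of 8 leave-out fits, those without Summer 3 (0.0345) and without Winter 1 (0.0245). *SOD1* was at 575, 550.5, 494 and 596 in summer and at 478, 437, 447 and 405 in winter. Its seasons did not overlap, but the log2 fold change of 0.32 missed the threshold (554 ± 44.0 and 442 ± 30.2, 95% interval 0.08 to 0.57, limma adjusted p = 0.0639). Catalase (*CAT*), which breaks hydrogen peroxide down in peroxisomes, was at 50.6, 58.9, 59.1 and 52.8 in summer and at 72.3, 61.9, 44.4 and 57.7 in winter. These overlapped, with a 95% interval of the log2 fold change of -0.44 to 0.29.

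Both subunits of glutamate-cysteine ligase, the first and rate-limiting enzyme of glutathione synthesis, rose in summer. The catalytic subunit *GCLC* was at 643, 392, 473 and 617 scaled TPM in Summer 1, 2, 3 and 5 and at 359, 329, 259.95 and 321 in Winter 1, 3, 4 and 5. Its lowest summer value was above its highest winter value. The means were 531 ± 119 and 317 ± 41.4, with a log2 fold change of 0.72 and a standard error of 0.17 (limma, adjusted p = 0.0161), and the call was lost only without Summer 1 (0.0514). The modifier subunit *GCLM* was at 45.5, 39.8, 52.3 and 35.0 in the summer libraries and at 25.8, 19.4, 7.32 and 30.1 in the winter libraries. Here too there was no overlap, and Winter 4 was the lowest library. The means were 43.2 ± 7.47 and 20.7 ± 9.93, with a log2 fold change of 1.17 and a standard error of 0.36 (limma, adjusted p = 0.0408), and the call was lost in 5 of 8 leave-out fits, at 0.0654 to 0.0983. *GCLC* exceeded *GCLM* 9.04- to 17.6-fold in the summer libraries and 10.7- to 35.5-fold in the winter libraries.

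The other members of glutathione synthesis and reduction, *GSS* and *GSR*, did not pass the adjusted p. *GSS*, which adds glycine to complete glutathione, was at 24.1, 34.9, 37.9 and 32.9 scaled TPM in summer and at 38.9, 46.6, 45.7 and 44.1 in winter. The seasons did not overlap, but the log2 fold change of -0.44 missed the threshold (limma, adjusted p = 0.0908). *GSR*, which reduces oxidised glutathione, was at 17.7 to 25.9 in summer and 17.2 to 24.2 in winter, with a 95% interval of -0.44 to 0.41.

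Of the glutaredoxins, which use glutathione to reduce protein disulfides or carry iron-sulfur clusters, *GLRX2*, an isoform mainly of mitochondria, fell on the scaled TPM. It was at 21.4, 21.8, 13.3 and 26.0 scaled TPM in the summer libraries and at 43.1, 32.9, 36.7 and 27.1 in the winter libraries. Summer 5 and Winter 5 nearly met. The log2 fold change was -0.75 with a standard error of 0.23 (20.6 ± 5.31 and 35.0 ± 6.75, limma adjusted p = 0.0385; 0.64 on the deposited TPM), and the call was lost in 6 of 8 leave-out fits, at 0.0616 to 0.0944. Cytosolic *GLRX* was at 5.80, 8.25, 7.21 and 14.6 in summer and at 22.1, 16.2, 47.3 and 8.70 in winter. Its log2 fold change of -1.13 was the lowest of any member, but Winter 5 lay in the summer range and it did not pass (limma, adjusted p = 0.0918). *GLRX3* and *GLRX5*, which serve iron-sulfur protein assembly, had 95% intervals of -0.31 to 0.26 and -0.41 to 0.25.

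None of the 4 methionine sulfoxide reductases, which repair oxidised methionine in proteins, passed the adjusted p, and 1, *MSRB3*, had an unadjusted p under 0.05 in limma. *MSRB3* was at 28.7, 31.1, 25.0 and 27.4 scaled TPM in summer and at 39.1, 34.0, 49.6 and 32.3 in winter. Those values did not overlap, with a log2 fold change of -0.44 (limma, adjusted p = 0.0954). *MSRB2*, of mitochondria, was at 23.0, 37.7, 12.9 and 29.2 in summer and at 35.1, 4.19, 47.8 and 47.2 in winter. Replicate 3 was the lowest library of either season, and the 95% interval of -1.47 to 1.38 was the widest of the members. *MSRA* was at 20.3 to 33.0 in summer and 23.1 to 36.8 in winter, and the selenoprotein *MSRB1* at 38.2 to 50.2 and 38.3 to 70.3.

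The regulators *NFE2L2* and *KEAP1*, the quinone reductase *NQO1* and the heme oxygenases did not pass the adjusted p in limma. *NFE2L2* was at 64.5, 48.1, 39.4 and 45.6 scaled TPM in the summer libraries and at 37.7, 28.0, 43.6 and 36.3 in the winter libraries. Winter 4 lay inside the summer range, and the log2 fold change of 0.43 had an unadjusted p under 0.05 but an adjusted p of 0.139. *KEAP1* was at 50.8, 54.7, 57.3 and 50.6 in summer and at 47.8, 56.6, 54.2 and 56.5 in winter. The 95% interval of its log2 fold change, -0.30 to 0.28, was among the narrower ones. *NQO1*, a reductase of quinones, was at 16.8, 9.87, 13.3 and 20.1 in summer and at 3.80, 26.3, 14.4 and 24.9 in winter. It varied more within the winter libraries than between the seasons, and its interval of -1.04 to 1.13 does not exclude a 2-fold difference in either direction. *HMOX1*, the inducible heme oxygenase, was at 97.9, 129, 78.7 and 55.3 in summer and at 104, 85.1, 94.5 and 101 in winter. Its interval was -0.65 to 0.34, and that of the constitutive *HMOX2* was -0.53 to 0.16. All values overlapped for *NQO1*, *HMOX1* and *HMOX2*, and 0 of the 3 had an unadjusted p under 0.05.

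Genes around the set were also past the adjusted p in both directions on the scaled TPM. The counts in the lists that follow stand beside 11.0% higher and 10.4% lower of all genes tested. No list was tested as a set. On the deposited TPM the genes named as lower in the lists that follow had log2 fold changes above 0, from 0.08 (*CYBA*) to 1.03 (*TALDO1*), except *XDH* at -0.50 and *SCLY* at -0.22. Of 18 tested partners and further targets of NRF2, 2 were higher in summer and 4 lower, with a median log2 fold change of 0.12. *RBX1*, of the ubiquitin ligase that works with KEAP1, was at 31.7 ± 3.47 scaled TPM in summer and 53.9 ± 2.82 in winter (limma, adjusted p = 0.00542). *FTH1*, the heavy chain of the iron store ferritin, was at 3199 ± 365 and 5999 ± 1133 (log2 fold change -0.89, adjusted p = 0.00604), and *BLVRB*, a biliverdin reductase, differed by -0.67 on the log2 scale (adjusted p = 0.00668). *NFE2L1*, a transcription factor related to NRF2, was higher in summer at 0.83 (adjusted p = 0.0387).

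Of 19 genes that supply NADPH, 2 were higher and 2 lower, near the shares of all genes tested, with a median of -0.12. *NADK*, the cytosolic NAD kinase, was at 31.9 ± 7.97 scaled TPM in summer and 58.8 ± 7.42 in winter (limma, adjusted p = 0.00886), while the mitochondrial *NADK2* was at 15.2 ± 4.04 and 7.38 ± 2.57 (adjusted p = 0.0313). *TALDO1*, of the pentose phosphate pathway, was lower at -0.47 (adjusted p = 0.0183), and malic enzyme *ME1* was higher at 0.67 (adjusted p = 0.0431). Of 15 genes of glutathione turnover, 1 was higher and 2 lower, with a median of 0.23. *GGCT*, which releases 5-oxoproline from gamma-glutamyl peptides, was at 18.1 ± 4.43 in summer and 8.40 ± 1.002 in winter (adjusted p = 0.0103). *SLC25A39*, the carrier of glutathione into mitochondria, was at 194 ± 26.9 and 301 ± 42.1 (log2 fold change -0.63, adjusted p = 0.0125), and *HAGH* was at -0.56 (adjusted p = 0.0317).

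Among other genes of the thioredoxin fold and of protein repair, 5 of 14 were higher in summer and 1 lower, with a median of 0.37. The 4 of smallest adjusted p were *TMX1*, *PRDX4*, *TXNDC9* and *TXNDC12*. *TMX1* was at 61.4 ± 21.8 scaled TPM in summer and 12.4 ± 3.59 in winter, or 2.19 on the log2 scale (limma, adjusted p = 0.0013). *PRDX4*, the secretory pathway peroxiredoxin, was at 164 ± 51.3 and 59.4 ± 12.97, or 1.41 on the log2 scale (adjusted p = 0.00376). Of 9 other selenoproteins tested, 3 were higher and 1 lower, with a median of 0.45, and *SELENOT*, *SELENOS* and *SELENOF* had log2 fold changes of 1.58, 1.81 and 0.78 (adjusted p = 0.00137, 0.00457 and 0.0192), beside -0.59 for *SELENOO* (0.0207).

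Of 8 genes of selenium supply and selenoprotein synthesis 1 rose and 1 fell, with a median of -0.06. *LRP8*, a receptor for selenoprotein P, was at 383 ± 173 scaled TPM in summer and 151 ± 65.2 in winter (limma, adjusted p = 0.0344), and *SCLY*, the selenocysteine lyase, was at 0.763 ± 0.735 and 3.85 ± 1.33 (adjusted p = 0.0113). Of 11 tested sources of superoxide and peroxide 1 rose and 2 fell, with a median of -1.01. *ERO1A*, which makes hydrogen peroxide as it oxidises proteins in the endoplasmic reticulum, was higher by 1.87 on the log2 scale (adjusted p = 0.00363). Xanthine dehydrogenase (*XDH*) and *CYBA*, a subunit of NADPH oxidases that white blood cells carry at a high level, had log2 fold changes of -2.14 and -1.36 (adjusted p = 0.00613 and 0.0115). The summed white blood cell genes given above were lower in every summer library, and their part in these values was not tested.

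By the gene models of NCBI RefSeq, all 36 members were found by symbol and 9 of them (*GPX8*, *PRDX6*, *TXN*, *TXNRD1*, *GLRX*, *GLRX2*, *GLRX3*, *KEAP1* and *MSRA*) overlap another annotated gene. Counting by strand is not given in the sources used here, so that reads of such a pair may not have been told apart. *CDC20B*, the neighbour that overlaps *GPX8*, was listed at 0 in 7 libraries and at 0.362 scaled TPM in Summer 1. Other neighbours had signal. *RO60*, which overlaps *GLRX2*, had means of 8.34 in summer and 7.83 in winter, and *RHOBTB3*, which overlaps *GLRX*, of 4.37 and 6.31.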

How the data were processed

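Polyadenylated RNA of bovine granulosa cells was measured in 8 libraries (4 Summer, 4 Winter). The authors deposited TPM values per gene, which sum to 1000000 in each library. Per the labels, the submitters used bcl2fastq, Bowtie2 2.2.2, DESeq2 and the build ARS-UCD 1.2, whereas the paper names CLC Genomics Workbench and another build, and the 2 sources also differ in the month of the winter collection. Read totals per library are not given in the sources used here, so no interval for counting error was computed, and low values are the less certain ones. Paralogs that share reads cannot be separated.

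The 13 mitochondrial genes were left out, totals set to 1000000, and TMM factors computed by the published formula (trimming 30% of M and 5% of A). TMM assumes that most genes do not differ. A gene was kept where its zFPKM exceeded -3 in each of the 4 libraries of either season. Season was tested as the only term by limma 3.58.1 (lmFit, eBayes with trend, R 4.3.3) on log2(scaled TPM + 1), two-sided, with Benjamini-Hochberg adjustment over 13046 genes. Fold changes are on that scale, which understates those of low genes. "Called" adds a 2-fold difference. The procedure was tested on simulated data, with 50 genes set to each true log2 fold change. Each gene was drawn independently around its winter mean, with no shared shift or difference in cell mix between the seasons. False calls under such a shift were not measured. At the adjusted p limma recovered 21 of the 50 genes at 1, 20 at -1, 44 at 2 and 35 at -2. Of 13959 unchanged genes 8 passed. A member that did not pass is therefore not shown to be unchanged. Figures were drawn with matplotlib 3.10.9. Gene names and overlaps came from RefSeq tables of another build, so no coordinates are given.

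The members and lists were chosen with earlier results of these data known. Values by library are given for members past the adjusted p, for the 8 of highest mean and for 1 of each remaining role; further members given by library were chosen after their values were seen. Of each companion list, up to 4 genes past the adjusted p are named.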

Additional observations from a re-analysis of the deposited data

Results flagged for a closer look

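Of 72 groups of 4 libraries (36 members in each season), 2 held a library apart from the other 3 by Dixon's criterion, which chance alone meets in about 1 group in 20. *PRDX5* in summer was lowest in Summer 3 at 183 scaled TPM, beside 247 to 255 in the other summer libraries, a gap of 0.891 of the range. *HMOX2* in winter was highest in Winter 4 at 41.4 scaled TPM, beside 35.0 to 35.3, a gap of 0.950 of the range.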

How the results depend on the processing

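Over 28 alternatives (26 planned, 2 added after seeing the data), the 36 members gave 1008 values, of which 128 lost and 27 gained the adjusted p. Of all values 21 reversed, and 80 further changes of sign had neither value past it. The counts below are members higher and lower at the adjusted p, then called higher and lower, beside 7, 6, 3 and 1. They were 26, 0, 25 and 0 on the deposited TPM; 11, 0, 6 and 0 without the TMM factor; 4, 6, 1 and 1 with an upper quartile factor; 5, 5, 1 and 0 with a pseudocount of 5; 4, 4, 1 and 0 without a filter; 4, 3, 1 and 0 without the variance trend; 7, 5, 3 and 0 with robust variance; 0, 1, 0 and 0 with the mitochondrial share as covariate; 0, 0, 0 and 0 with the red blood cell sum; and, both added, 0, 0, 0 and 0 with the leukocyte sum and 2, 3, 1 and 1 without Winter 3 and 4. With the leukocyte sum 0 of all genes passed (limma), and 1185 had an unadjusted p under 0.05. Leaving out 1 library gave 2 to 7, 3 to 5, 1 to 3 and 0 to 1, with 2 and 3 past the adjusted p without Summer 1. The cause of these changes was not tested.

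Same-numbered libraries of the seasons deviated together with r of 0.0394, 0.163 and 0.112. The values of replicates 3 (0.163) and 5 (0.112) were above those of all pairs with unlike numbers. No source used here ties the numbers to cows, so they were not taken as pairs, and whether they mark the same cows was not settled. The replicate block as a fixed term, which leaves fewer degrees of freedom, gave 3, 2, 1 and 0, and as a random term 7, 6, 3 and 1. Winter 1 correlated best with Summer 2.

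The reversed log2 fold changes were, on the deposited TPM (median of all genes 0.89), *GPX1* 0.84, *GPX4* 1.5002, *PRDX2* 1.45, *PRDX5* 0.90, *PRDX6* 1.47, *TXN2* 0.75, *TXNRD2* 0.88, *SOD2* 0.42, *CAT* 1.304, *GSR* 1.16, *HMOX1* 1.29, *HMOX2* 1.14, *GLRX2* 0.64, *GLRX3* 1.44, *GLRX5* 1.42, *KEAP1* 1.35, *MSRA* 1.04, *MSRB1* 1.10 and *MSRB2* 1.14. *SOD3* was at -0.081 with the red blood cell sum and *GPX7* at -0.38 with the leukocyte sum as covariate, neither past the adjusted p.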
